A study of Homo sapiens with 10 samples.

Results

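AD32 cells and A549 cells were compared while both were in discodermolide at the same concentration. The comparison takes every array titled as resistant cells (AD32, 3 arrays) and every array titled as senescent cells (A549 in discodermolide, 2 arrays), that is 5 of the 10 arrays of the series. A549 is an established human lung adenocarcinoma line, AD32 is a human lung line labelled resistant to discodermolide, and both were in 32 nM of the drug. Of the other arrays, 4 are A549 in 0.01% DMSO, labelled sensitive, and 1 is AD32 4E-BP1, which also received 0.01% DMSO and is labelled sensitive. The labels do not say how AD32 was derived, whether it is a single clone, or how long A549 was in the drug. The numbered arrays are called biological replicates with no word on how they were grown apart, so the p-values measure the spread between these samples.

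Discodermolide binds tubulin and stabilises microtubules, which disturbs the mitotic spindle. Sensitive cells exposed to low amounts of such agents can leave the cell cycle and become senescent, a lasting arrest that is known for enlarged lysosomes, cyclin-dependent kinase inhibitors and a changed set of secreted proteins. Because the drug is present in both populations here, the comparison asks how cells labelled resistant differ from cells labelled senescent, apart from the presence of the drug itself. Line and state change together between the groups, so a difference of cell line and a difference of senescence cannot be told apart.

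Levels are given on the deposited log2 scale. Tests are from limma, with Benjamini-Hochberg adjustment of each p over 18279 genes, and SE is on the log2 scale throughout. Array medians lay between 6.50 and 6.63. The lower quartiles lay between 4.77 and 4.94, and signal above background was not shown for levels near or below them, so a large fold change with 1 group there need not equal a ratio of transcripts. The epithelial genes KRT8, KRT18 and CDH1 were well expressed in all 5 arrays (lowest level 13.27, 13.61 and 9.67), while EPCAM (3.41 to 3.87) and KRT19 (5.87 to 6.26) were low. The defining lung markers were low as well, with NKX2-1 between 4.58 and 5.11 and SFTPC between 5.69 and 6.53. The leukocyte marker PTPRC (2.77 to 3.20) and the fibroblast marker DCN (3.00 to 3.22) were near the lowest levels on the arrays.

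The arrays of a group were not equally alike. AD32 replicate 3 correlated across genes at 0.951 and 0.958 with AD32 replicates 1 and 2, which correlated at 0.982 with each other, and at 0.977 with A549 DMSO replicate 2. Its mean level over 29 G2/M and mitosis genes was 9.53, against 5.12 and 6.13 in the other AD32 arrays and 6.49 and 6.77 in treated A549. A549 DMSO replicate 1, which enters only through the shared spread, correlated at 0.976 with treated A549 replicate 1 and at 0.948 to 0.954 with the other DMSO arrays. The treated A549 arrays correlated at 0.992. Results are therefore given with and without AD32 replicate 3 where its removal ends a call or moves a fold change by over 1.5 times.

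Of 18279 genes, 683 differed between AD32 and A549 in the same drug (3.74% of those tested, limma, adjusted p under 0.05). AD32 was higher for 234 (1.28%) and lower for 449 (2.46%), and the change was at least 2-fold for 180 (0.985%) and 340 (1.86%) of them. The shares of 1.28% and 2.46% are the ones to set beside the list counts below that use all arrays. The median size among the called genes was 1.33 on the log2 scale, while the median difference over all genes was 0.01. In all 683 called genes the 3 AD32 arrays lay apart from both treated A549 arrays, as they did in 32.3% of all genes. The count moved with single arrays. Removal of AD32 replicate 1, 2 or 3 gave 412, 420 and 1082 (5.92%), and removal of treated A549 replicate 1 or 2 gave 186 and 132. Removal of DMSO replicate 1, 3 or 4 gave 1215, 443 and 438, and the compared groups fitted alone gave 353 (1.93%). Without AD32 replicate 3, 607 of the 683 genes were still called in the same direction, and 109 were called in each of the 5 fits that left out 1 compared array.

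**Figure D1:**
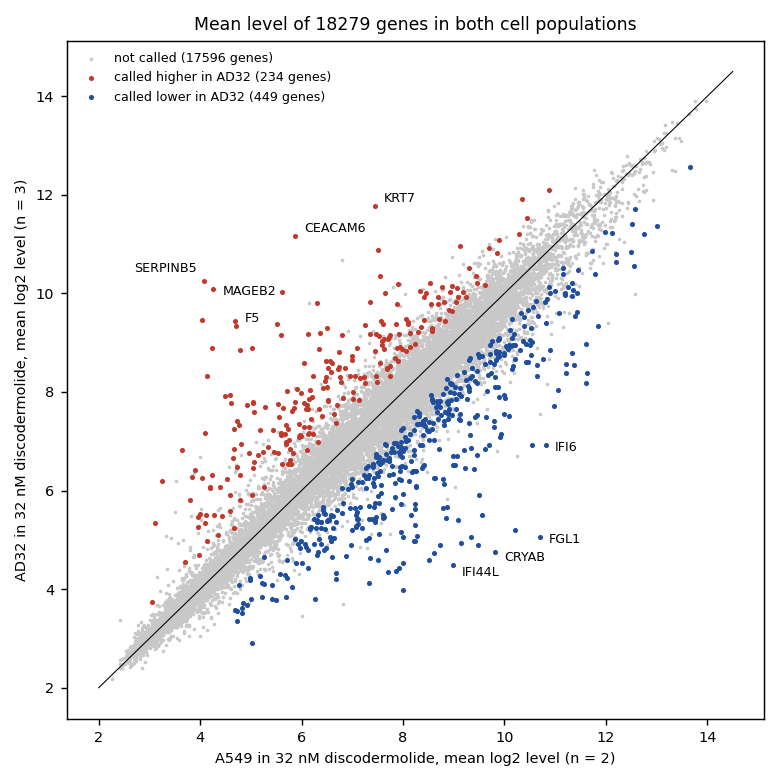
Each point is 1 of 18279 genes, placed by its mean log2 level in 2 arrays of A549 in discodermolide (x axis) and in 3 arrays of AD32 in discodermolide (y axis), with the line of equal level. The 234 genes called higher in AD32 (red) and the 449 called lower (blue) lie on either side of the line, and SERPINB5 and FGL1 are among those farthest from it.

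The most strongly raised gene in AD32 was SERPINB5, which encodes maspin, an epithelial member of the serpin family. Its level was 10.83, 10.46 and 9.49 in AD32 replicates 1 to 3 and 3.97 and 4.19 in treated A549. The groups lay far apart, and the 4 A549 DMSO arrays (3.68 to 4.26) were as low as the treated ones. The rise was 72.4-fold (log2 difference 6.18, SE 0.35, adjusted p = 3.6e-05). SERPINB7, a neighbour of the same serpin branch, was named after its values were seen and rose 10.7-fold (SE 0.25, adjusted p = 0.000157). SLPI, a secreted inhibitor of leukocyte proteases, stood at 11.14, 10.8 and 10.71 in AD32 and at 6.76 and 8.25 in treated A549. Its rise was 10.4-fold (SE 0.36, adjusted p = 0.00143), and 6.19-fold or 17.4-fold without treated replicate 1 or 2, since replicate 2 was nearer to AD32. SERPINB5 and SLPI were the 2 genes called, both higher, among 21 measured matrix proteases and their inhibitors. Over all genes 1.28% were called higher.

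MAGEB2, a gene of the MAGE family that is normally restricted to the testis, was close to uniform in AD32 at 9.96, 10.09 and 10.19. Treated A549 stood at 4.67 and 3.85, near the DMSO arrays (3.78 to 4.44). The rise was 56.5-fold (log2 difference 5.82, SE 0.28, adjusted p = 1.55e-05), and MAGEB2 was the only call among 19 measured cancer-testis antigen genes, whose median difference was 0.00. CEACAM6, a cell surface adhesion molecule of the carcinoembryonic antigen family, was at 12.24, 11.38 and 9.90 in AD32 and at 5.77 and 5.97 in treated A549. It rose 39.4-fold (SE 0.74, adjusted p = 0.00583) and 61.4-fold without AD32 replicate 3, and its call ended without either treated array. TSPAN8, a tetraspanin of epithelial membranes, was at 8.62, 8.86 and 7.47 against 3.95 and 4.32, an 18.1-fold rise (SE 0.40, adjusted p = 0.000791). In the list of 31 measured CEACAMs, mucins and tetraspanins these were the 2 rises, and 2 genes fell, TSPAN7 (9.47-fold, adjusted p = 0.0257) and TM4SF20 (6.34-fold, adjusted p = 0.00149). The call of TSPAN7 ended without AD32 replicate 2 or either treated array.

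Genes of epithelial differentiation and of the basement membrane were among the higher calls. KRT7, a simple-epithelium keratin, had nearly the same level in each population: 11.84, 11.74 and 11.76 in AD32 and 7.44 and 7.45 in treated A549. Its 20.2-fold rise had the smallest p of all genes (log2 difference 4.33, SE 0.16, adjusted p = 7.61e-06). SCEL, which encodes the cornified-envelope protein sciellin, was at 9.95, 9.37 and 7.25 against 4.86 and 4.71. It rose 16.8-fold with all arrays (SE 0.64, adjusted p = 0.0102) and 29.3-fold without AD32 replicate 3, and its call ended without either treated array. Over all genes 1.28% rose and 2.46% fell. Of 28 measured epithelial keratins and junction genes, 3 rose and 0 fell, namely KRT7, the desmosomal cadherin DSC2 (2.48-fold, adjusted p = 0.0338) and the plakophilin PKP2 (2.26-fold, adjusted p = 0.0338). The latter pair lost their calls without AD32 replicate 2, without DMSO replicates 3 or 4 and without either treated array, and PKP2 also without AD32 replicate 1. KRT8, KRT18 and CDH1 did not pass, with log2 differences of 0.05, 0.15 and 0.20. DSC3, another desmosomal cadherin chosen after its values were seen, rose 9.17-fold (SE 0.25, adjusted p = 0.000283). Of 53 measured keratin genes 2 rose and 1, KRT4, fell (log2 difference -1.22). Of 63 cadherins and protocadherins 1 rose and 5 fell (7.94%, against 2.46% of all genes), with a median of 0.07. Both families were chosen after their values were seen.

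NID2, which encodes the basement membrane protein nidogen-2, was at 9.71, 10.04 and 9.66 in AD32 and at 6.56 and 6.05 in treated A549. It rose 11.3-fold (SE 0.33, adjusted p = 0.00078). LAMB3, a laminin chain of epithelial basement membranes, was at 10.24, 10.24 and 9.53 against 7.49 and 7.81 and rose 5.11-fold (SE 0.26, adjusted p = 0.0017). In both genes the DMSO arrays (5.25 to 6.42 and 6.36 to 6.88) were below all AD32 arrays, and for LAMB3 below both treated arrays as well. Of 23 measured collagens and basement membrane genes, 3 rose and 0 fell, the third being COL4A4 (1.75-fold, adjusted p = 0.0239), and the list's median was 0.14. Over all genes 1.28% rose. Among 19 integrin genes ITGB8 was the sole call (2.51-fold higher, adjusted p = 0.026). COL4A4 lost its call without AD32 replicate 2, DMSO replicate 3 or either treated array, and ITGB8 in the same fits and without AD32 replicate 1.

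The mesenchymal list did not move 1 way. Among its 28 measured genes, 2 rose and 2 fell and the median was -0.12. The rises were TNC, a matrix glycoprotein (5.93-fold, adjusted p = 0.00785), and FBN1, a microfibril protein (2.71-fold, adjusted p = 0.0326). The falls were ZEB1, a repressor of epithelial genes (2.13-fold, adjusted p = 0.0277), and the collagen gene COL3A1 (3.35-fold, adjusted p = 0.0471). TNC was at 7.81, 7.79 and 6.4 in AD32 and at 4.69 and 4.85 in treated A549, and its rise was 8.19-fold without AD32 replicate 3. ZEB1 was at 6.23, 6.86 and 6.76 against 7.65 and 7.76, a small gap between groups that do not overlap. Each of these 4 calls ended without either treated array, and those of FBN1, ZEB1 and COL3A1 also without AD32 replicate 1. FBN1 in addition lost its call without AD32 replicate 2 or DMSO replicate 3, ZEB1 without DMSO replicate 4, and COL3A1 without any other array except DMSO replicate 1. VIM, which encodes vimentin, did not pass (log2 difference -0.26, adjusted p = 0.864).

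Several of the largest rises belong to none of these groups. F5, which encodes coagulation factor V, was at 9.09, 9.63 and 9.29 in AD32 and at 4.71 in both treated arrays, a 24.6-fold rise (SE 0.22, adjusted p = 1.55e-05). FSTL1, a secreted glycoprotein that binds ligands of the TGF-beta family, was at 10.28, 9.83 and 10.0 against 5.85 and 5.37, a 21.5-fold rise (SE 0.20, adjusted p = 1.55e-05). NEO1, which encodes the netrin and repulsive guidance receptor neogenin, was at 9.19, 9.67 and 9.30 against 5.65 and 5.37, a 14.7-fold rise (SE 0.19, adjusted p = 1.91e-05). All 3 genes were low in every A549 array whether or not the drug was present, with DMSO levels of 4.36 to 4.95, 5.50 to 5.83 and 5.27 to 5.61.

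GDA, which encodes guanine deaminase, varied within AD32, at 10.76, 8.40 and 9.21 against 3.92 and 4.17. Its rise was 42.6-fold (SE 0.56, adjusted p = 0.00122) and 27.1-fold without AD32 replicate 1. TC2N rose 27.2-fold (SE 0.52, adjusted p = 0.00164), from 4.62 and 4.74 to 10.15, 9.58 and 8.61. CLTRN, which encodes collectrin, rose 25.5-fold (SE 0.31, adjusted p = 8.84e-05), from 4.51 and 3.95 to 8.40, 9.47 and 8.83. Each of these genes kept its call in all 9 fits that left out 1 array of the numbered groups, and all 24 genes with the largest changes kept theirs without AD32 replicate 3.

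**Figure D2:**
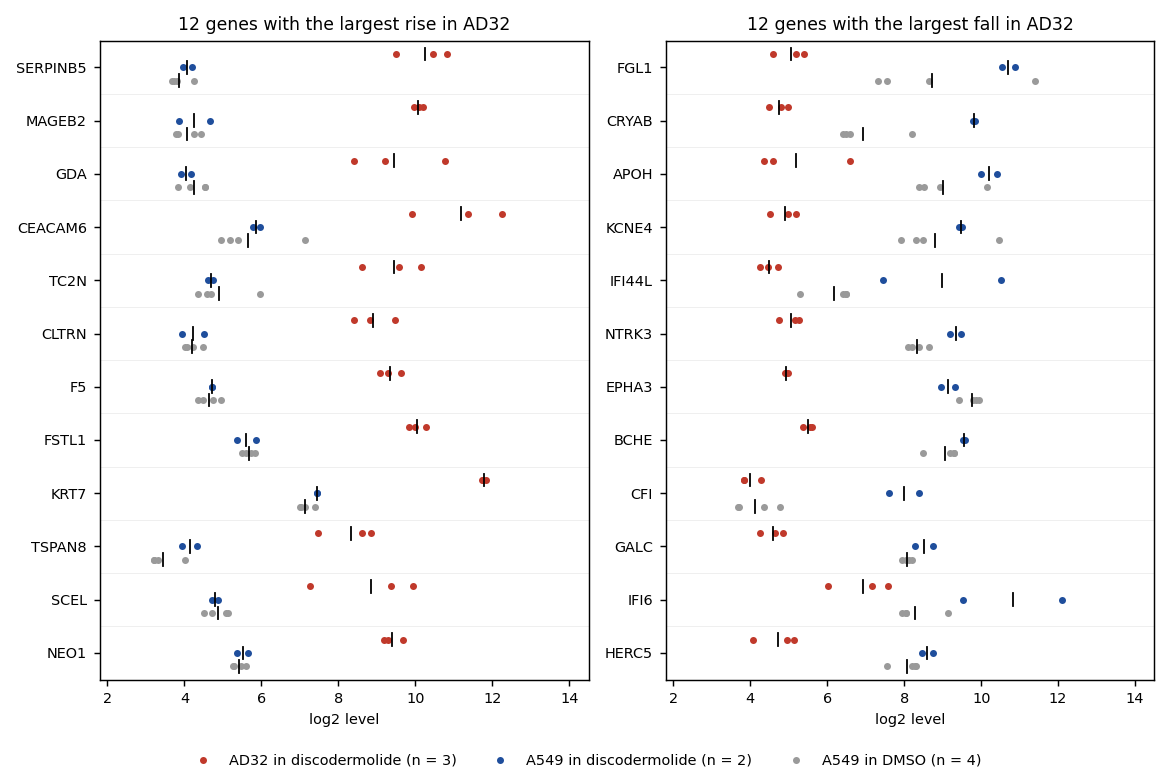
Log2 level (x axis) of the 12 genes with the largest rise (left) and the 12 with the largest fall (right) in AD32, 1 point per array, with a black tick at each group's mean. AD32 points (red) lie apart from treated A549 (blue) in all 24 genes, while A549 in DMSO (grey) sits with the treated arrays for SERPINB5 and KRT7 and has a mean closer to AD32 for CRYAB and CFI.

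The largest falls included genes for liver-type plasma proteins and complement. These proteins are made chiefly by hepatocytes and take part in coagulation, lipid transport and the acute-phase response, and complement genes are also known in lung epithelium. Of 33 measured members of this list, 11 fell and 1, F5, rose. The list's median difference was -0.88 and 27 of 33 members were below 0. Without AD32 replicate 3, where 3.36% of all genes were called lower and 2.56% higher, the counts were also 11 and 1 and the median was -0.77. The list's mean level was 5.68, 5.67 and 5.74 in AD32, 6.90 and 7.22 in treated A549 and 5.58 to 6.31 in A549 in DMSO.

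FGL1, a fibrinogen-related protein secreted by the liver, had the largest fall of all genes. It was at 4.58, 5.39 and 5.18 in AD32 and at 10.53 and 10.87 in treated A549. The DMSO arrays were spread from 7.31 to 11.4, the highest being replicate 1. The fall was 50.3-fold (log2 difference -5.65, SE 1.01, adjusted p = 0.0175), and the call ended without AD32 replicate 1 or either treated array. APOH, which encodes a phospholipid-binding apolipoprotein, was at 4.37, 4.60 and 6.60 against 9.99 and 10.42. It fell 32.4-fold (SE 0.69, adjusted p = 0.00546) and 52.8-fold without AD32 replicate 3, and its call ended without treated replicate 2.

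CFI, the complement regulator factor I, was at 4.29, 3.84 and 3.83 in AD32 and at 7.60 and 8.38 in treated A549, a 16-fold fall (SE 0.36, adjusted p = 0.000598). LBP, which binds bacterial lipopolysaccharide, was at 4.40, 4.33 and 4.31 against 7.55 and 7.87, a 10.3-fold fall (SE 0.15, adjusted p = 1.55e-05). TTR, which carries thyroid hormone and retinol-binding protein, was at 5.10, 5.14 and 5.14 against 7.42 and 7.63, a 5.27-fold fall (SE 0.13, adjusted p = 3.23e-05). For these 3 genes the DMSO arrays lay near AD32 (3.68 to 4.78, 4.41 to 4.70 and 5.34 to 5.50), and only treated A549 was high. The other falls of the list were C1S (8.11-fold) and C1R (3.00-fold), the proteases of the first complement component, vitronectin VTN (4.54-fold), haptoglobin HP (4.36-fold), SERPINA3 (4.23-fold) and prothrombin F2 (3.86-fold). The calls of C1S and C1R ended without either treated array, that of C1S also without AD32 replicate 1, and that of SERPINA3 without treated replicate 2.

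Interferon-stimulated genes were another group that was lower in AD32 than in treated A549. These genes respond to interferon through the ISGF3 complex, which binds a sequence element with a repeated GAAA core, and encode antiviral proteins. Of 32 measured members 8 fell and 1 rose, the median was -0.67 and 27 were below 0. Without AD32 replicate 3 the counts were 8 and 1 and the median was -0.54. In the fit of the compared groups alone, which called 1.31% of all genes lower and 0.624% higher, 4 fell and 0 rose. The upstream sequences of 4 called members are shown because they hold the repeated GAAA core described above, and because the fallers and the 1 riser can be compared. They are the 250 bases before the transcription start from RefSeq (GRCh38.p14), 5′ to 3′ on the gene's strand, with capitals marking a GAAA, any 2 bases and a further GAAA on either strand (TTTC on the strand shown where the match is on the other), overlapping matches included. They lie at chr1:27672193-27672442 (minus strand) for IFI6, chr1:78620198-78620447 (plus) for IFI44L, chr10:89414318-89414567 (plus) for IFIT5 and chr7:93117980-93118229 (minus) for SAMD9.
IFI6: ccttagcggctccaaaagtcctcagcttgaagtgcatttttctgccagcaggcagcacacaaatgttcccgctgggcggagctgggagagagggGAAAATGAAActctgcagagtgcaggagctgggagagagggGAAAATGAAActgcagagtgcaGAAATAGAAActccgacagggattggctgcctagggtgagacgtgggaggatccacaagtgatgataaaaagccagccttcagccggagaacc
IFI44L: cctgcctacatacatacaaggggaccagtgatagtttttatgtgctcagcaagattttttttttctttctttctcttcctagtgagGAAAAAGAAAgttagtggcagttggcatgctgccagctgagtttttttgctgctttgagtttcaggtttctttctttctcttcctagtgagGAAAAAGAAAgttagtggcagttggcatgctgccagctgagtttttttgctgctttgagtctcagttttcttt
IFIT5: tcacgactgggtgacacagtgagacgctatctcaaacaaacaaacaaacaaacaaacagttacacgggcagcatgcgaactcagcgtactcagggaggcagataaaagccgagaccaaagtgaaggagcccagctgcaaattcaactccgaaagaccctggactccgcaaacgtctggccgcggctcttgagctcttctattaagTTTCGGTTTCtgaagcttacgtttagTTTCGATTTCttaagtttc
SAMD9: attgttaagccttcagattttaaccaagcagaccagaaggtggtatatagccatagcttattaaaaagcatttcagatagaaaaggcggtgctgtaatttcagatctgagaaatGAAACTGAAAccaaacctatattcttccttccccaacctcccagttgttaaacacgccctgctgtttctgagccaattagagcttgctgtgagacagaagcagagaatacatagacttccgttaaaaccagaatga

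The motif was in 3.02% of 35116 promoters of the same length and in 17 of the 25 measured list members that matched the promoter table (68%). Of the 8 called members with a promoter in the table, 6 held it, namely IFI44L, IFI6, IFIT5, HERC5, PARP9 and SAMD9, while IFI35 and RIGI did not within this window. The median difference was -0.96 over list members with the motif and -1.13 over those without. A match is a description of these letters and not a measured site.

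IFI44L was at 4.72, 4.25 and 4.47 in AD32 and at 7.44 and 10.52 in treated A549. The treated arrays themselves were far apart, and the DMSO arrays (5.29 to 6.49) lay between AD32 and both of them. The fall was 22.6-fold (SE 0.75, adjusted p = 0.0126). IFI6 had the same shape, at 7.59, 7.16 and 6.01 against 9.53 and 12.11, a 14.9-fold fall (SE 0.73, adjusted p = 0.0215) that ended without AD32 replicate 2 or treated replicate 2. Without treated replicate 1 or 2 the fall was 65.9-fold or 7.76-fold for IFI44L and 36.5-fold or 6.11-fold for IFI6. In both genes treated replicate 2 was the higher. The list's mean level was 6.60 in treated replicate 1 and 7.77 in replicate 2, against 6.03, 6.13 and 5.86 in AD32. In A549 in DMSO it was 6.04 to 6.43, close to AD32. HERC5, the ligase that attaches ISG15, was at 5.14, 4.96 and 4.07 against 8.46 and 8.75. Its treated arrays were alike, and it fell 14.7-fold (SE 0.34, adjusted p = 0.000488). In the fit of the compared groups alone IFI44L and IFI6 did not pass (adjusted p = 0.057 and 0.0764), while HERC5 did (adjusted p = 0.00634).

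PARP9, an ADP-ribosyltransferase of the interferon response, was at 5.49, 5.94 and 5.49 in AD32 and at 7.97 and 9.60 in treated A549. It fell 8.86-fold (adjusted p = 0.00351), and 15.6-fold or 5.03-fold without treated replicate 1 or 2. RIGI, a sensor of viral RNA, was at 6.14, 6.65 and 6.42 against 7.46 and 8.94 and fell 3.47-fold (adjusted p = 0.0426), or 5.78-fold without treated replicate 1 and 2.08-fold, no longer called, without replicate 2. As for IFI44L and IFI6, treated replicate 2 was the higher in both. TRIM22, a restriction factor, fell 7.00-fold (adjusted p = 0.00203), IFI35 5.68-fold (adjusted p = 0.00525) and IFIT5 2.76-fold (adjusted p = 0.0283). The call of RIGI ended without any AD32 array, without DMSO replicates 2, 3 or 4 and without treated replicate 2, and that of IFIT5 without AD32 replicate 1, DMSO replicate 4 or either treated array. The call of IFI35 ended without treated replicate 2. SAMD9 went the other way, at 8.59, 8.35 and 8.26 in AD32, 6.03 and 7.14 in treated A549 and 4.40 to 4.64 in DMSO, a 3.53-fold rise (SE 0.28, adjusted p = 0.00988). Among 12 antigen presentation genes, which interferon also regulates, HLA-DMA fell 2.62-fold (adjusted p = 0.0279) and the peptide transporter TAP2 1.75-fold (adjusted p = 0.0409), with a list median of -0.40. Both calls ended without AD32 replicates 1 or 2, DMSO replicate 4 or either treated array, and that of TAP2 also without AD32 replicate 3 (adjusted p = 0.0599) and without DMSO replicates 2 or 3.

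**Figure D3:**
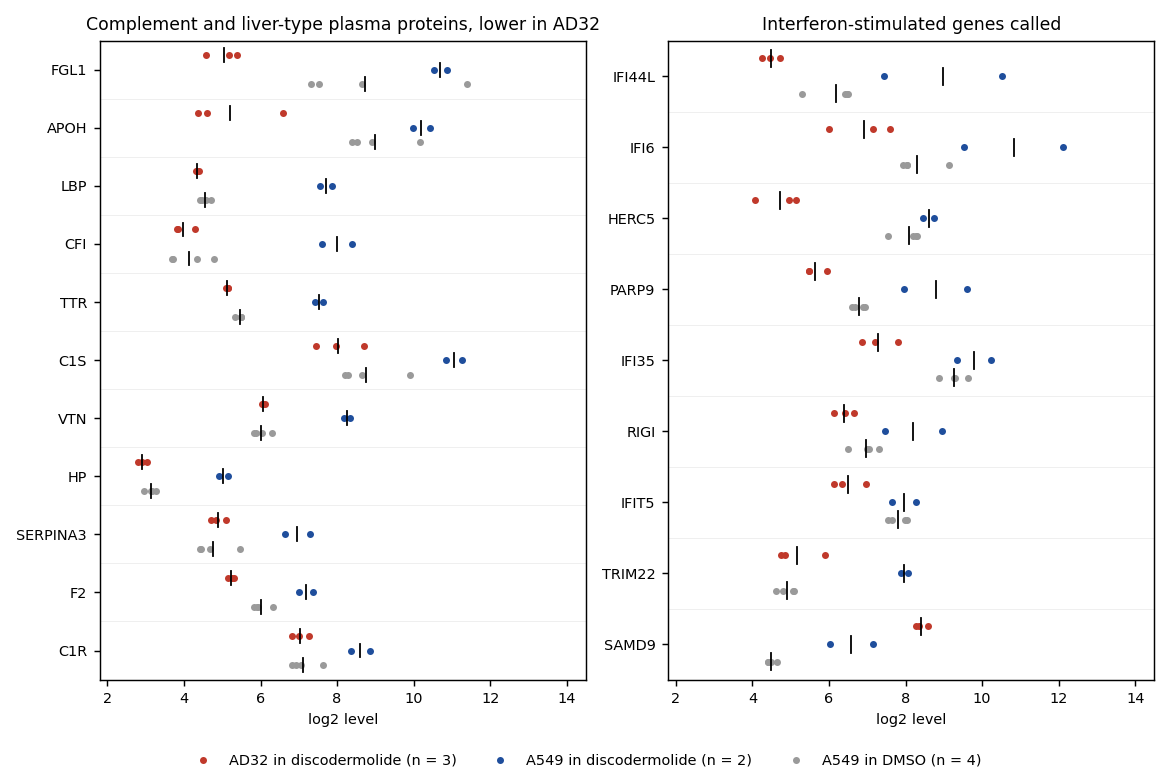
Log2 level (x axis) in each array of AD32 (red), A549 in discodermolide (blue) and A549 in DMSO (grey), with a black tick at the group mean, for the 11 plasma protein and complement genes called lower in AD32 (left) and the 9 interferon-stimulated genes called (right). LBP, CFI and TTR are high only in treated A549, IFI44L and IFI6 differ between the treated arrays, and SAMD9 is the 1 gene higher in AD32.

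Receptors and other membrane proteins were also among the falls. EPHA3, a receptor for ephrin-A ligands, was at 4.89, 4.97 and 4.92 in AD32 and at 9.32 and 8.96 in treated A549, an 18.6-fold fall (SE 0.19, adjusted p = 1.55e-05). Its relative EPHA5 was at 4.71, 4.49 and 4.40 against 8.16 and 7.84, an 11.1-fold fall (SE 0.20, adjusted p = 4.02e-05). These were the 2 calls among 21 Eph receptors and ephrins, and the list's median was 0.08. NTRK3, the receptor for neurotrophin-3, was at 4.74, 5.17 and 5.27 against 9.48 and 9.19, a 19.4-fold fall (SE 0.22, adjusted p = 2.49e-05). In EPHA3, EPHA5 and NTRK3 all A549 DMSO arrays were high too (9.42 to 9.95, 7.51 to 8.04 and 8.10 to 8.65). Only the 3 AD32 arrays in discodermolide were low. The AD32 4E-BP1 array, in DMSO, was at 9.23, 8.01 and 8.95. Of 28 other receptor tyrosine kinases 3 rose, namely EGFR (2.96-fold, adjusted p = 0.022), MST1R (3.56-fold, adjusted p = 0.0138) and ROR1 (2.18-fold, adjusted p = 0.0164), and NTRK3 fell. Those 3 calls ended without either treated array, those of EGFR and ROR1 also without AD32 replicate 1, and that of EGFR without AD32 replicate 2.

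BCHE, which encodes butyrylcholinesterase, was at 5.56, 5.37 and 5.60 in AD32 against 9.59 and 9.52, a 16.5-fold fall (SE 0.24, adjusted p = 4.82e-05). KCNE4, an accessory subunit of potassium channels, was at 4.52, 4.99 and 5.19 against 9.43 and 9.51, a 23.8-fold fall (SE 0.62, adjusted p = 0.00512) whose call ended without either treated array. The list of 32 potassium channel genes had 1 rise, KCNK1 (3.46-fold, adjusted p = 0.00419), and 2 falls, KCNE4 and KCNE3 (1.53-fold, adjusted p = 0.0307). KCNK1 lost its call without treated replicate 2, and KCNE3 kept it only without AD32 replicate 3 or DMSO replicate 1. CXXC5, a zinc finger protein of Wnt signalling, was at 7.51, 7.62 and 7.43 against 10.06 and 10.11, a 5.92-fold fall (SE 0.13, adjusted p = 2.49e-05). The fall in BCHE and CXXC5 was against both kinds of A549, since the DMSO arrays stood at 8.48 to 9.30 and 9.79 to 9.98.

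CRYAB, which encodes the small heat shock protein alpha-B crystallin, was at 4.80, 4.97 and 4.49 in AD32 and at 9.79 and 9.83 in treated A549. The DMSO arrays were between, at 6.4 to 6.59 in replicates 2 to 4 and 8.2 in replicate 1. The fall was 33.3-fold (SE 0.48, adjusted p = 0.000717). It was the only call among 25 heat shock proteins and chaperones, whose median difference was -0.13.

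Lysosomal genes include the source of senescence-associated beta-galactosidase, a widely used stain for senescent cells. Of 32 measured members 4 fell and 0 rose, 29 were below 0 and the median was -0.77. Over all genes 2.46% fell and 1.28% rose, and 53.8% of those above the median level were below 0. The list's mean level was 9.02, 8.88 and 8.76 in AD32, 9.60 and 9.64 in treated A549, and 8.74 to 9.33 in DMSO. GALC, the galactosylceramidase, was at 4.64, 4.26 and 4.85 against 8.28 and 8.74, a 15.2-fold fall (SE 0.21, adjusted p = 2.71e-05), with the DMSO arrays high (7.94 to 8.21). FUCA1, a fucosidase, fell 3.81-fold (adjusted p = 0.0138), LIPA, the acid lipase, 2.57-fold (adjusted p = 0.00616) and MANBA, a mannosidase, 2.46-fold (adjusted p = 0.0222). The calls of FUCA1 and MANBA ended without AD32 replicate 2 or either treated array, that of MANBA also without AD32 replicate 1, and that of LIPA without treated replicate 2. GLB1, which encodes beta-galactosidase itself, was at 9.41, 9.13 and 8.91 in AD32 and at 10.18 and 10.35 in treated A549. These arrays did not overlap, but the difference did not pass (log2 difference -1.12, SE 0.34, adjusted p = 0.129).

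Metabolic genes were also among the lower calls. Over all genes 2.46% fell and 1.28% rose. Of 28 hypoxia and glycolysis genes 5 fell and 0 rose, with a median of -0.41. They were ALDOC (5.72-fold), the carbonic anhydrase CA12 (3.65-fold), the mitophagy gene BNIP3 (2.51-fold, SE 0.13, adjusted p = 0.000816), the collagen prolyl hydroxylase P4HA1 (2.08-fold) and the hexokinase HK1 (2.06-fold). BNIP3 was at 9.0, 9.15 and 8.97 in AD32 and at 10.38 and 10.36 in treated A549. It alone among these 5 kept its call in all 9 fits that left out 1 array. The others lost it without either treated array, ALDOC, CA12 and P4HA1 also without AD32 replicate 1 and without 1 or more DMSO arrays, and ALDOC and CA12 without AD32 replicate 2.

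Of 26 NRF2 antioxidant and detoxification genes 2 fell, 0 rose and 23 were below 0, with a median of -0.64. Of all genes, 2.46% fell with all arrays and 3.36% without AD32 replicate 3. Without that array 8 genes of the list fell and the median was -0.87. The list's mean level was 10.33, 9.99 and 10.92 in AD32 replicates 1 to 3 against 11.11 and 11.14 in treated A549. The epoxide hydrolase EPHX1 was at 8.41, 7.99 and 9.29 against 11.15 and 11.29, a 6.29-fold fall (adjusted p = 0.00809) that ended without either treated array. ALDH1A1, the retinaldehyde dehydrogenase and 1 of the brightest genes on these arrays, was at 12.49, 12.49 and 12.69 against 13.77 and 13.55, a 2.15-fold fall (adjusted p = 0.00496) that ended without treated replicate 1. Among 23 cholesterol and fatty acid synthesis genes 0 were called, and 4 fell without AD32 replicate 3, where 3.36% of all genes fell. Their mean level was 8.48, 8.83 and 9.49 in AD32 and 9.19 and 9.26 in treated A549. Among 27 ER and amino acid stress genes 0 were called with all arrays and 1 rose without AD32 replicate 3, where 2.56% of all genes rose.

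**Figure D4:**
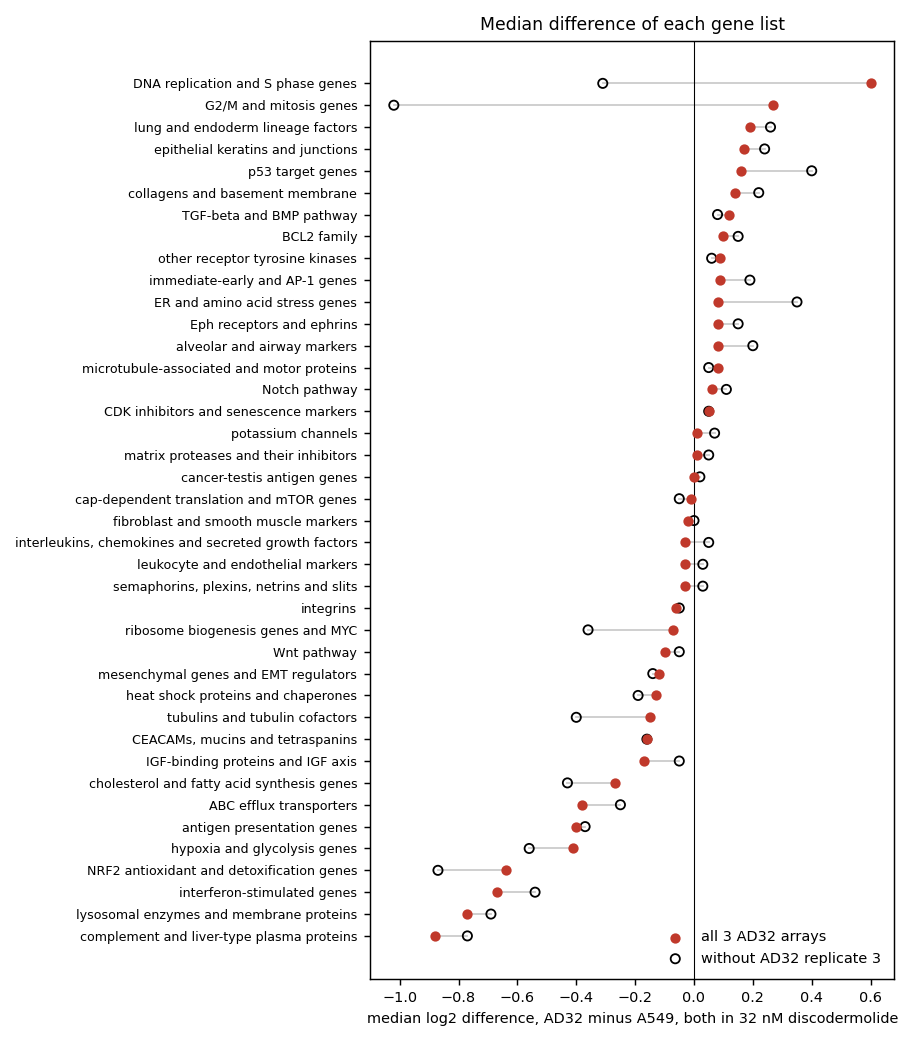
Median log2 difference (x axis, AD32 minus A549, both in discodermolide) of each of the 40 gene lists, with all AD32 arrays (filled) and without AD32 replicate 3 (open). The plasma protein, lysosomal, interferon and NRF2 lists lie lowest with all arrays, and the S phase and G2/M lists change sign without AD32 replicate 3.

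The position of A549 in DMSO relative to both drug-exposed populations is given as a description, since the DMSO arrays were not part of the contrast. Of the 234 genes called higher in AD32, the DMSO mean was nearer to treated A549 in 220. Of the 449 called lower it was nearer to treated A549 in 265 and nearer to AD32 in 184. Over all genes it was nearer to treated A549 in 51.7%. In 221 of the 234 higher genes all 4 DMSO arrays were below all AD32 arrays. The AD32 4E-BP1 array, also in DMSO, was at 3.92 for SERPINB5, 3.73 for MAGEB2 and 7.35 for KRT7. Across genes it correlated at 0.995 with A549 DMSO replicate 2 and at 0.932, 0.939 and 0.979 with AD32 replicates 1 to 3. The lower genes were of several kinds. In 157 of the 449 the DMSO arrays were all above AD32 and not all below treated A549, as for EPHA3 and EPHA5. In 134 they were all below treated A549 and not all above AD32, as for CFI and VTN, and in another 157 they lay between the groups, as for CRYAB and IFI44L. These counts of where the DMSO arrays lay were made for called genes only, with no share over all genes beside them. The called genes already lay apart between the compared groups, and the DMSO arrays lent spread to their tests.

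No gene of the cell cycle lists passed the test. Of 29 G2/M and mitosis genes and 33 DNA replication and S phase genes 0 were called, with medians of 0.27 and 0.60, and without AD32 replicate 3 again 0 were called, with medians of -1.02 and -0.31. Over all genes, 2829 had an unadjusted p under 0.05. The S phase list's mean level was 6.87, 7.21 and 9.58 in AD32 replicates 1 to 3 and 7.28 and 7.40 in treated A549, so that replicates 1 and 2 were at or below the treated arrays and replicate 3 was above them. MKI67, the proliferation marker, was at 5.51, 5.87 and 9.93 in AD32 and at 6.90 in both treated arrays, and LMNB1, a lamin that falls in senescence, at 6.50, 7.53 and 10.0 against 7.42 in both. Neither difference passed (SE 1.45 and 1.01, adjusted p = 0.98 and 0.899), while the median SE over all genes was 0.21. The G2/M list's mean was 6.73 in A549 DMSO replicate 1 and 9.82 to 9.94 in the other DMSO arrays. With a spread this wide, a missing call does not show equal levels. Without AD32 replicate 3 and that DMSO array, a setting chosen after seeing the data, MKI67 was lower in AD32 (log2 difference -1.21, adjusted p = 0.0108). In cultures, fewer cells in a state and less RNA per cell cannot be told apart from these values. The ribosome biogenesis list (20 genes, 0 called, median -0.07) had a mean of 8.99, 9.19 and 9.94 in AD32 against 9.47 and 9.30, and 1 of its genes fell without AD32 replicate 3.

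Genes that mark p53 activity and arrest held 1 call with all arrays, where 3.74% of all genes were called. Of 27 measured p53 targets 0 rose and 1 fell, and the median was 0.16. Without AD32 replicate 3, where 2.56% of all genes rose and 3.36% fell, 1 rose and 2 fell and the median was 0.40. The gene called with all arrays was SPATA18, a mediator of mitochondrial quality control. It was at 5.54, 5.11 and 5.24 in AD32 and 8.48 and 7.98 in treated A549, a 7.63-fold fall (SE 0.25, adjusted p = 0.000467). CDKN1A, which encodes the cyclin-dependent kinase inhibitor p21, was at 10.28, 10.45 and 9.0 in AD32 and at 10.21 and 9.79 in treated A549, overlapping, and at 7.59 to 8.64 in DMSO (log2 difference -0.09, SE 0.44, adjusted p = 0.969). The list's mean was 9.68, 9.90 and 9.04 in AD32, 9.73 and 9.55 in treated A549 and 8.2 to 8.57 in DMSO, with AD32 replicate 3 the lowest of the drug-exposed arrays. Among 13 CDK inhibitors and senescence markers 0 were called, with a median of 0.05.

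Secreted signals of the senescence-associated set went both ways. Of 43 interleukins, chemokines and growth factors 1 rose, 3 fell and the median was -0.03, while 1.28% of all genes rose and 2.46% fell. Without AD32 replicate 3, where 2.56% of all genes rose and 3.36% fell, 4 rose and 4 fell and the median was 0.05. CXCL1, a neutrophil chemokine, was at 10.61, 9.83 and 9.03 in AD32 and at 7.05 and 7.65 in treated A549, a 5.55-fold rise (SE 0.40, adjusted p = 0.011), and its call ended without either treated array. CXCL8 overlapped between the groups, at 8.26, 7.72 and 7.02 against 6.86 and 8.07 (adjusted p = 0.92). LIF fell 2.79-fold (adjusted p = 0.045), IL6 2.59-fold (adjusted p = 0.0485) and CSF1, the macrophage growth factor, 2.34-fold (adjusted p = 0.0213). All 3 calls ended without AD32 replicate 1 or either treated array, and those of LIF and IL6 also without AD32 replicate 2 or DMSO replicates 2, 3 or 4. IL6 was low throughout, at 4.20, 3.77 and 3.53 against 4.83 and 5.59, and did not pass without AD32 replicate 3 (adjusted p = 0.0771). In the IGF axis (12 genes) IGFBP4, an inhibitor of IGF action, was the sole call, 2.93-fold lower (adjusted p = 0.0197), and it lost its call without AD32 replicate 1 or either treated array.

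Genes connected with the drug's target and with its export held 2 calls with all arrays, both falls. Of all genes, 3.74% were called and 2.46% fell. Of 21 tubulins and tubulin cofactors 0 were called with all arrays and 1 fell without AD32 replicate 3, where the median moved from -0.15 to -0.40. Of 34 microtubule-associated and motor proteins 2 fell and the median was 0.08. MAPRE3, a plus-end binding protein of the EB family, was at 6.82, 7.05 and 6.71 in AD32 and at 9.35 and 9.32 in treated A549, a 5.54-fold fall (SE 0.38, adjusted p = 0.00955). MAP2, a neuronal microtubule-associated protein, was at 6.83, 6.88 and 5.79 against 8.58 and 8.22, a 3.72-fold fall (SE 0.34, adjusted p = 0.0174). Both calls ended without either treated array. Of 14 ABC efflux transporters 0 were called with all arrays and 3 fell without AD32 replicate 3 (where 3.36% of all genes fell), namely ABCG2, ABCC2 (2.70-fold, adjusted p = 0.0337) and ABCC4 (2.35-fold, adjusted p = 0.039). ABCB1, which encodes P-glycoprotein, was low everywhere (4.32 to 4.53, log2 difference 0.02, adjusted p = 0.978). ABCG2 was at 6.78, 7.39 and 8.44 against 8.49 and 8.5, and its fall was 2.66-fold without AD32 replicate 3 (adjusted p = 0.00688) but did not pass with it (1.94-fold, adjusted p = 0.255).

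Among 25 genes of cap-dependent translation and mTOR signalling 1 rose and 1 fell. EIF4E3, a relative of the cap-binding protein eIF4E, was at 8.08, 8.03 and 7.18 in AD32 and at 5.67 and 5.40 in treated A549, a 4.69-fold rise (SE 0.27, adjusted p = 0.00313) that ended without treated replicate 2. PDCD4, an inhibitor of the helicase eIF4A, fell 2.30-fold (adjusted p = 0.0315), a call that ended without AD32 replicate 1, DMSO replicate 2 or either treated array. EIF4EBP1, which encodes 4E-BP1, was at 8.93, 7.99 and 8.63 against 9.76 and 9.58. The groups did not overlap, and the 2.23-fold lower level did not pass (SE 0.31, adjusted p = 0.0841). EIF4E did not pass (log2 difference -0.10, adjusted p = 0.915). Of 18 BCL2 family genes the survival gene BCL2 rose 1.68-fold (adjusted p = 0.0381) and BCL2L11, which encodes the death-promoting BIM, fell 1.88-fold (adjusted p = 0.03). Both calls ended without AD32 replicates 1 or 2, DMSO replicates 3 or 4 or either treated array, and that of BCL2 also without AD32 replicate 3 (adjusted p = 0.0628) or DMSO replicate 2.

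Of the 146 genes measured on the developmental signalling and immediate-early lists 12 were called (8.22%, against 3.74% of all genes). Of 33 TGF-beta and BMP pathway genes FSTL1 and SMAD4 rose, the latter 1.69-fold (adjusted p = 0.0413). Of 23 immediate-early and AP-1 genes NR4A1 (3.43-fold, adjusted p = 0.00583) and KLF4 (3.06-fold, adjusted p = 0.00585) rose. Of 36 Wnt pathway genes the secreted antagonists SFRP4 (3.46-fold, adjusted p = 0.00435) and DKK1 (2.69-fold, adjusted p = 0.0388) fell. Of 21 Notch pathway genes the ligand JAG2 rose 2.06-fold (adjusted p = 0.0285), while the target HES1 (2.16-fold, adjusted p = 0.0164) and the coactivator MAML2 (2.02-fold, adjusted p = 0.0111) fell. Of 33 semaphorins, plexins, netrins and slits 3 fell, namely UNC5D, a netrin receptor (3.21-fold, adjusted p = 0.000691), SLIT3 (2.84-fold, adjusted p = 0.00754) and the Slit receptor ROBO1 (2.39-fold, adjusted p = 0.0108). UNC5D kept its call in all 9 fits that left out 1 array. SFRP4 lost it without treated replicate 1, and the others of this paragraph apart from FSTL1 without either treated array. SMAD4, DKK1, HES1 and JAG2 also lost it without AD32 replicates 1 or 2, and SMAD4, DKK1 and JAG2 without 1 or more DMSO arrays.

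Lineage and cell type lists held 2 calls in all, while 3.74% of all genes were called. Of 22 lung and endoderm lineage factors FOXA1, a pioneer factor of endoderm, rose 1.99-fold (adjusted p = 0.0155), from 6.95 and 7.06 to 8.11, 7.87 and 8.03, a call that ended without AD32 replicate 1 or either treated array. Of 14 alveolar and airway markers 0 were called, and the list's mean was 6.19, 6.10 and 5.63 in AD32 against 5.85 and 5.82. Of 13 leukocyte and endothelial markers 0 were called, with a mean of 5.09, 4.77 and 4.84 against 4.95 and 5.07. Of 14 fibroblast and smooth muscle markers COL3A1 alone fell, with a list mean of 5.82, 5.8 and 5.84 against 6.07 and 6.03. COL3A1 itself was at 6.52, 6.0 and 6.13 against 8.48 and 7.45, while the fibroblast markers DCN and PDGFRA stayed at or below 4.28 in these 5 arrays and LUM at or below 5.51.

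Probe sets outside the gene tests were fitted apart. Of 3326 that are unnamed in the annotation 7 were higher in AD32 (0.21%) and 27 lower (0.812%), and of 1720 that name several genes 1 was higher (0.0581%) and 2 lower (0.116%). The largest rise among the unnamed was in probe set 7908072, at 11.08, 10.55 and 10.0 in AD32 and at 6.66 and 6.52 in treated A549.

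The differences were not spread evenly over the chromosomes. Among genes above the median level (9139 genes), 53.8% were lower in AD32 and the median difference was -0.04. On chromosome 10 the median was -0.47, with 307 of 368 expressed genes lower (83.4%), and on chromosome 8 it was -0.45, with 276 of 334 lower (82.6%). Each AD32 array had the shift, at -0.56, -0.41 and -0.43 on chromosome 10 and -0.53, -0.40 and -0.46 on chromosome 8. The 4 A549 DMSO arrays were at -0.29, -0.01, 0.02 and 0.01 on chromosome 10, the first being replicate 1, which was below 0 on all chromosomes except 19. The AD32 4E-BP1 array was at -0.05 on chromosome 10 and -0.23 on chromosome 8. Of the tested genes, 50 of 678 on chromosome 10 (7.37%) and 49 of 634 on chromosome 8 (7.73%) were called lower, against 2.46% overall. On chromosome 10, 4 of 678 were called higher (0.59%). Among its lower genes are BNIP3, HK1 and P4HA1 of the hypoxia list, and LIPA, ZEB1, DKK1, PDCD4 and IFIT5 of other lists.

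The reverse was seen on chromosome 18, where the median was 0.34, 24 of 131 expressed genes were lower (18.3%) and 13 of 262 tested genes were called higher (4.96%, against 1.28% overall). Chromosome 15 had a median of 0.29 with 22 of 572 called higher (3.85%), chromosome 14 one of 0.27 with 15 of 580 (2.59%), chromosome 12 one of 0.19 with 22 of 972 (2.26%) and chromosome 7 one of 0.18 with 16 of 827 (1.93%). The values of AD32 replicates 1 to 3 were 0.24, 0.45 and 0.36 on chromosome 18, 0.26, 0.32 and 0.27 on chromosome 14 and 0.13, 0.19 and 0.45 on chromosome 15. The AD32 4E-BP1 array was at 0.03, -0.01 and -0.04 on these chromosomes. Chromosome 18 holds SERPINB5, SERPINB7, DSC2, DSC3, SMAD4 and BCL2, which were called higher, and TTR, which was called lower. On it 3 of 262 tested genes were called lower (1.15%, against 2.46% overall). Copy number was not measured.

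**Figure D5:**
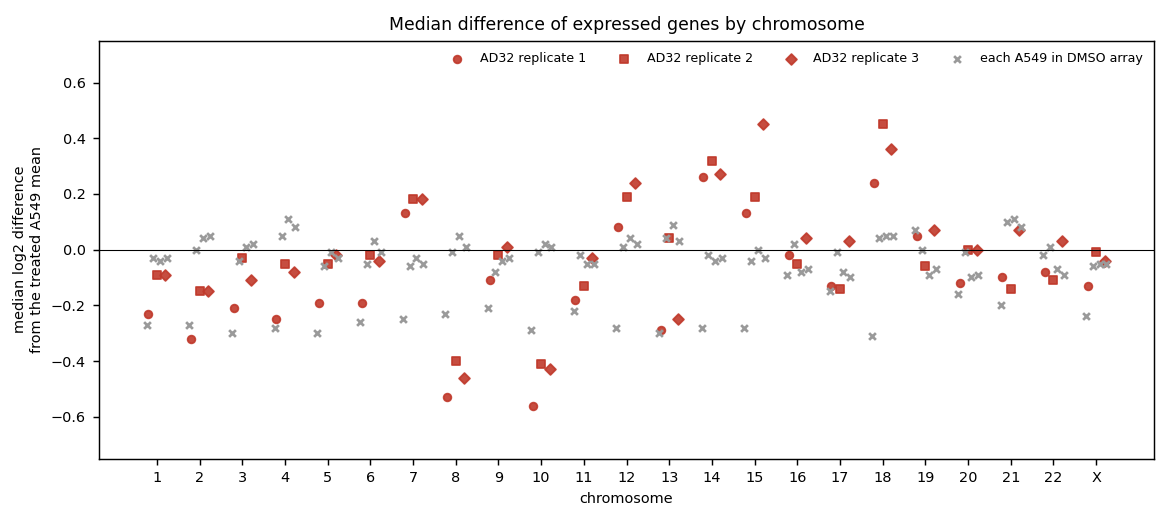
Median log2 difference from the mean of the 2 treated A549 arrays (y axis) over the expressed genes of each chromosome (x axis), for each AD32 array (red) and each A549 array in DMSO (grey). All 3 AD32 arrays lie between -0.40 and -0.56 on chromosomes 8 and 10 and above 0 on chromosomes 7, 12, 14, 15 and 18.

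Within chromosomes, runs of 25 neighbouring expressed genes were read in the order of the GRCh38.p14 annotation. The run length was chosen with earlier results of these data known. Runs were picked for having the highest or lowest median of this same difference on their chromosome. The calls and signs counted inside them partly follow from that choice and are no separate evidence. Over all genes 1.28% were called higher and 2.46% lower, and 53.8% of the expressed genes were below 0. The highest run lay on chromosome 5 from CCDC125 to ZBED3, with a median of 1.07 and 23 of 25 genes above 0, and it held the calls TNPO1, ARHGEF28 and ENC1 (higher) and F2RL2 (lower). AD32 replicate 3 was lower there than its fellows (1.17, 1.63 and 0.34). The run from PRPS2 to ACOT9 on the X chromosome had a median of 0.78, alike in the AD32 arrays (0.68, 0.86 and 0.80), with 4 genes called higher. The lowest runs were SNX16 to TP53INP1 on chromosome 8 (median -0.96, 8 genes called lower, among them CA2, CA13 and CDH17) and MPV17 to DPY30 on chromosome 2 (median -0.77, 5 called lower). On chromosome 10 the lowest run, HK1 to FAM149B1, had a median of -0.70 with 24 of 25 genes below 0, and includes the hypoxia list's HK1 and P4HA1.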

How the data were processed

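Biotin-labelled total RNA was measured by the authors on 1 Affymetrix array per sample, and the submitters' processing notes name Affymetrix Expression Console, with its settings not stated. The deposited values were read as log2 signal from their range. Groups came from the titles and cell line labels. Of 24308 probe sets, 19262 name 1 gene (18279 genes), 1720 several and 3326 none. For 740 genes with over 1 probe set the one with the highest mean was used. Probe sets of close relatives may share signal, which was not tested.

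The fit used limma 3.58.1 in R 4.3.3 (lmFit, eBayes), two-sided, on all 10 arrays with 6 residual degrees of freedom shared by 4 groups. The number of arrays limits the precision. Benjamini-Hochberg adjustment ran over 18279 genes with a threshold of 0.05. The script was tested on simulated data. Named genes were the 12 largest changes per direction whose arrays did not overlap, the 6 smallest p per direction, up to 3 called genes per list and a fixed set (such as CDKN1A, MKI67 and ABCB1) whatever their result. The members, the 40 lists and the rule were chosen with earlier results of these data known. Sex-linked genes used for sample identity were left out. Replicate numbers did not pair AD32 with treated A549 (correlations of deviations 0.08 and 0.10). Between AD32 and A549 in DMSO these correlations were 0.68, -0.26 and 0.41 for replicates 1 to 3. Alternatives were another normalization, filters, priors, array weights, smaller sets of arrays and a minimum fold.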

Additional observations from a re-analysis of the deposited data

Results flagged for a closer look

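In the group of 4 A549 DMSO arrays, which lends spread to the comparison, 13 of 45 named genes had 1 array far from the others (by Dixon's ratio of gap to range). Chance gives such a gap in about 5% of groups. In 10 of these the array was replicate 1, at 8.2 for CRYAB, 9.14 for IFI6, 7.54 for HERC5, 4.01 for TSPAN8, 7.71 for LMNB1, 10.23 for EIF4EBP1, 10.16 for GLB1, 12.67 for KRT8, 13.03 for KRT18 and 10.22 for VIM. Replicate 2 stood apart for IFI44L (5.29) and BCHE (8.48), and replicate 4 for TTR (5.34).

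Outside the named genes, 15 probe sets with no gene name, with identifiers between 7982008 and 7982092, were called lower in AD32. Their median level was 5.45 and 4.20 in treated A549 replicates 1 and 2, above the 2.48 to 3.35 seen in any A549 DMSO array and the 2.63 to 3.28 of any AD32 array. They held only 8 distinct sets of values, so they are not independent measurements.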

How the results depend on the processing

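The 683 calls (234 higher, 449 lower) depended on the setting. They were 1869 (684 and 1185) with array weights, 353 (114 and 239) with the compared groups alone and 153 (64 and 89) against a minimum fold of 1.5. Removing the lowest 33.3% of genes by mean left 154 higher. Leaving out 1 array gave 132 to 1215 calls, 55 to 468 higher and 77 to 815 lower. An alternative chosen after seeing the data, without AD32 replicate 3 and A549 DMSO replicate 1, gave 2769 (1038 and 1731). There MKI67 was lower in AD32 (log2 difference -1.21, adjusted p = 0.0108) against 0.20 with all arrays, the sole change of direction involving a call among 96 named genes. With the replicate number as a block 547 genes were called, 418 of them among the 683, but the numbers did not pair AD32 with treated A549. Of 79 called named genes, 31 kept their call in each of the 9 fits without 1 array, and 21 lost it only without a treated array. The cause of these changes was not tested. A549 DMSO replicates 3 and 4 correlated at 0.997, and with their mean as 1 array 458 of the 683 calls were kept. With 2 treated arrays, leaving out either leaves 1, assumed to vary like the other groups.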

Other observations

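Other genes, named after their values were seen, add to the groups described. In AD32 the epithelial transcription factor EHF was higher at 8.47, 8.30 and 9.92 against 4.40 and 5.64 in treated A549 (14.7-fold, adjusted p = 0.00476), as were mesothelin, MSLN (8.29-fold, adjusted p = 0.00349), the membrane protein EMP1 (10.3-fold, adjusted p = 8.97e-05) and the nuclear receptor NR5A2 (6.44-fold, adjusted p = 4.02e-05). EHF was 9.54-fold higher and lost its call without treated replicate 1, and it was 22.6-fold higher without treated replicate 2. MSLN lost its call without treated replicate 2. Among 23 myosin genes of the MYO series, which leaves out the MYH genes, 3 were higher (13%, against 1.28% of all genes) and 0 lower. They were MYO1D (11.8-fold, and 18.5-fold without AD32 replicate 3), MYO5B and MYO5C, and MYO1D lost its call without either treated array. Of 15 GABA-A receptor subunits 2 were lower (13.3%, against 2.46% of all genes). They were GABRA5 (9.56-fold, adjusted p = 0.000941) and GABRG1 (5.53-fold, adjusted p = 0.00791), and the family's median difference was -0.06. The GABA transaminase ABAT was also lower (5.85-fold, adjusted p = 0.00512). GABRA5 was at 7.07, 7.64 and 8.44 in AD32 and at 10.48 to 11 in all 6 A549 arrays, whereas ABAT was high in treated A549 (8.99 and 8.57) and at 6.11 to 7.20 in DMSO. GABRG1 lost its call without either treated array and ABAT without treated replicate 1. MSC, a repressor of the helix-loop-helix family, was 12.7-fold lower (adjusted p = 3.23e-05).

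Genes of interferon and innate immunity outside the fixed list were also among the lower calls: IFITM2 (6.86-fold), DTX3L, the partner of PARP9 (4.91-fold), the RNA sensor TLR3 (4.70-fold), TLR4 (3.81-fold), and all 3 measured BTN3A butyrophilins (BTN3A1 4.28-fold, BTN3A2 3.39-fold, BTN3A3 3.05-fold). Among 6 apolipoprotein L genes APOL1 (6.4-fold) and APOL6 (6.12-fold) were lower (33.3%, against 2.46% of all genes). Zinc finger genes of the ZNF series on chromosome 19 numbered 235, of which 10 were lower and 0 higher (4.26%, against 2.46% of all genes). Their median difference was 0.04, with 99 of 235 below 0, and of all 491 ZNF genes 14 were lower (2.85%) and 5 higher. Among the lower was ZNF160, at 5.61, 5.35 and 5.38 in AD32 and at 7.69 and 7.52 in treated A549 (4.48-fold, adjusted p = 0.000127). DTX3L, TLR3 and BTN3A2 lost their calls without treated replicate 2, and BTN3A3, APOL1 and APOL6 without either treated array. APOL6 also lost its call without AD32 replicate 2 or DMSO replicates 2, 3 or 4. These families were chosen after their values were seen and carry no test of their own.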
